A study of Homo sapiens with 12 samples.

Results

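The 36 transcripts described here encode the chaperones of the endoplasmic reticulum (ER), its disulfide isomerases, the machinery of ER-associated degradation (ERAD), the sensors and transcription factors of the unfolded protein response (UPR), and parts of the translocon. They were taken by gene symbol from the 45478 genes of the count table, each symbol matched 1 row, and all 36 were among the 19929 genes that passed the filter on low counts. By role they were 11 chaperones and cochaperones, 5 disulfide isomerases and reductases, 12 ERAD genes, 5 sensors and transcription factors, and 3 translocon genes.

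mRNA was sequenced from 4 groups of 3 libraries each. 786-O and A498 are established lines of clear cell renal cell carcinoma (ccRCC), both of which lack the tumour suppressor VHL, and the libraries named parental here came from cells that had not been selected with a drug. Resistant 786-O and resistant A498 are the sublines selected from them by growth in rising concentrations of sunitinib, an inhibitor of VEGF and PDGF receptor tyrosine kinases, over 4 months and more than 20 passages. The concentration was 4 µM for resistant 786-O, a line whose name the protocol spells otherwise at this place, and 2 µM for resistant A498. A change in resistant 786-O is against parental 786-O, and resistant A498 is set against parental A498 and against parental 786-O, with the comparison named each time. Both comparisons with parental 786-O use the same parental 786-O libraries, so like values in both are not independent results. All libraries are labelled as untreated at harvest, the labels give no sign of single-cell cloning and name no separate cultures, so the p-values given below measure the spread between these libraries, which may be technical. The spread of each gene was estimated over all 4 groups together, so that of resistant 786-O also enters the p-values of comparisons without this group.

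Proteins that enter the secretory pathway are folded in the ER by BiP (HSPA5) and its cochaperones, by the lectin chaperones calnexin and calreticulin, and by disulfide isomerases, and those that do not fold are moved back to the cytosol through the SEL1L and HRD1 complex for destruction by the proteasome. When unfolded proteins accumulate, the sensors IRE1 (ERN1), PERK (EIF2AK3) and ATF6 are activated. ATF6 and the spliced form of XBP1 then raise the transcription of chaperone and ERAD genes, while PERK slows translation and raises ATF4 and CHOP. Because XBP1 is spliced by IRE1 and ATF6 is cut by proteases, the activity of these sensors is not read from the level of their mRNA, and gene counts hold no measure of XBP1 splicing.

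Depth was 20042519 to 47972092 counts a library with a median of 37898338, and a member other than DERL3 had at least 191 counts in every library. Levels are given in CPM, counts scaled to library size with the trimmed mean of M-values (TMM). Of 9 markers of ccRCC and renal epithelium, 7 were at 1 CPM or more in every group, with PAX8 at 199.7 to 312 CPM. NDUFA4L2 was under 1 CPM in every group, and CA9 was at 1.29 CPM in parental A498 and at 0.0175 CPM or less in the others. Each of 14 T cell markers was under 1 CPM. Of 7 plasma cell markers SDC1, which epithelial cells also make, was high, and all others were under 3 CPM.

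A pair of facts about the libraries bear on every value below. First, the libraries labelled resistant A498 were more like parental 786-O (median Pearson r of log2 levels 0.965) and resistant 786-O (0.988) than like parental A498 (0.910). The 62 genes at 10 CPM or more in parental A498 and at no more than 3 counts in parental 786-O stood in resistant A498 at a median of 0.362% of their parental A498 level, whereas the 26 genes of the opposite kind stood at 79.9% of their parental 786-O level. A difference between resistant A498 and parental A498 can therefore not be told apart from the difference between the parental lines, and each such value is given beside the difference between resistant A498 and parental 786-O. Each group also has a batch label of its own, so batch and group cannot be told apart. Second, resistant 786-O replicate 2 stood apart from replicates 1 and 3. The standard deviation of its log2 difference from the mean of the others was 0.286 over 10085 genes at 10 CPM or more, against 0.163 and 0.170 for the other resistant 786-O libraries and no more than 0.0996 in the other groups.

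The counts also did not separate the strands. Over 322 antisense RNAs that lie within the exons of a coding gene, the antisense RNA had a median of 1.65 times the counts per exon base of the coding gene (quartiles 0.823 and 2.49). Reads of a member and of an overlapping gene on the opposite strand can thus not be told apart, and 15 of the 36 members had such a partner with 5% or more of their own counts. They were SEC61A1, DERL2, DNAJB11, DERL3, SSR1, OS9, DERL1, PDIA6, HYOU1, SYVN1, HSP90B1, EIF2AK3, CALR, CRELD2 and P4HB, and PDIA3 had a pseudogene copy, PDIA3P1, with 5.17%.

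**Figure D1:**
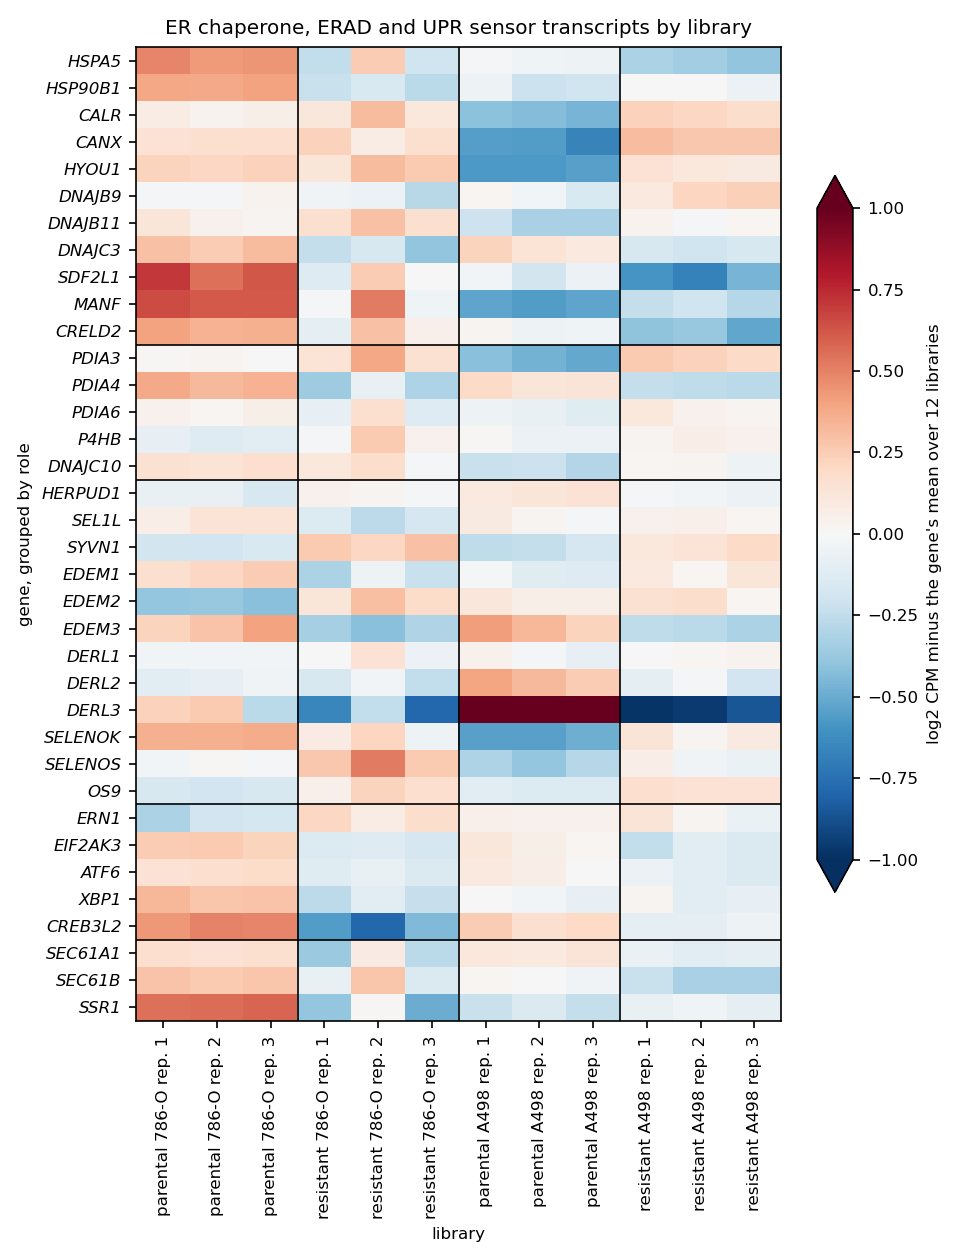
Level of each of the 36 transcripts (rows, grouped by role in the order chaperones, disulfide isomerases, ERAD, sensors and factors, translocon) in each of the 12 libraries (columns), as log2 CPM minus the gene's mean over all libraries, with red above and blue below the mean. The 3 libraries of parental 786-O, parental A498 and resistant A498 were alike within each group, whereas resistant 786-O replicate 2 differed from replicates 1 and 3, and the scale ends at 1, which DERL3 in parental A498 exceeds.

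Several of these genes are textbook targets of the UPR factors, and the stretches of promoter below are shown because they hold the letters that those factors read. The ER stress response element (ERSE) is read by ATF6 with NF-Y and was searched as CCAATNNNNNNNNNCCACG. ERSE-II was searched as ATTGGNCCACG and the UPR element of XBP1 (UPRE) as TGACGTGG, all on both strands of the 250 bases before the RefSeq start (GRCh38.p14), where 33 members had an entry. ERSE was found in 22 of 27305 promoters (0.081%) and in 6 of the 33 members, ERSE-II in 14 promoters (0.051%) and 3 members, and UPRE in 182 promoters (0.667%) and 2 members, so that 10 members held at least 1. A match is a description of the letters, and binding was not measured. Not printed are a further ERSE of HSP90B1, a further ERSE-II of HYOU1 and the UPRE of DNAJC10, all in the reverse direction. The stretches are given 5′ to 3′ on the strand of the gene, with the matched element in capitals.
HSPA5, ERSE, chr9:125241376-125241424, minus strand: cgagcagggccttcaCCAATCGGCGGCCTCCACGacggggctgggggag
HSP90B1, ERSE, chr12:103930201-103930249, plus strand: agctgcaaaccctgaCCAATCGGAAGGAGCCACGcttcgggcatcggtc
CALR, ERSE in the reverse direction, chr19:12938369-12938417, plus strand: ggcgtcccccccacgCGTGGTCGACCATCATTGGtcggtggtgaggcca
CANX, ERSE, chr5:179698763-179698811, plus strand: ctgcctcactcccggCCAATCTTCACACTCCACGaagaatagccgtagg
CRELD2, ERSE in the reverse direction, chr22:49918539-49918587, plus strand: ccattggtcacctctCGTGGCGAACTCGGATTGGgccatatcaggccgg
XBP1, ERSE, chr22:28800588-28800636, minus strand: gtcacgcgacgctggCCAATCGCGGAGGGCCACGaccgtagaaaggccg
SDF2L1, ERSE-II in the reverse direction, chr22:21642099-21642139, plus strand: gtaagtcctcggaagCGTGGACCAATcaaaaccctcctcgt
HERPUD1, ERSE-II, chr16:56932010-56932050, plus strand: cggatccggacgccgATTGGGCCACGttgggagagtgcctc
HYOU1, UPRE joined to ERSE-II in the reverse direction, chr11:119057365-119057408, minus strand: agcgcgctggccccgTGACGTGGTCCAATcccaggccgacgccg
Genes with an ERSE did not share 1 direction. HSPA5 and CRELD2 were lower in every resistant comparison, CALR was higher in each, HSP90B1 and XBP1 were lower than in parental 786-O, and CANX in resistant 786-O had a log2 fold change of 0.00.

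In resistant 786-O the members went both ways, in shares close to those of other well expressed genes. 10 of the 36 members were called higher and 19 lower (adjusted p under 0.05 from edgeR's quasi-likelihood test, adjusted over all 19929 genes tested), which is 27.8% and 52.8% of the members against 35.0% and 33.5% of all genes tested. Among the 10085 genes at 10 CPM or more, 29.0% were higher and 47.7% lower. The median log2 fold change of the members was -0.26, that of all genes 0.03, and that of the genes at 10 CPM or more -0.13. With scaling by library size in place of TMM, the median of all genes moved by 0.14 and the split of members became 13 higher and 16 lower. The members' median minus that of all genes was -0.29, and it was -0.18 once each library's dependence on GC content and gene length was taken out (GC and length trend removed), with 7 members higher and 19 lower.

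In the libraries labelled resistant A498, 14 members were called higher and 14 lower than in parental A498, each 38.9%, against 36.3% and 36.4% of all genes tested and 43.2% and 38.0% of the genes at 10 CPM or more. The members' median log2 fold change was 0.04, and with the GC and length trend removed it was -0.22 with 10 members higher and 19 lower. Against parental 786-O, 8 members were called higher and 18 lower (22.2% and 50.0%, against 31.6% and 32.1% of all genes tested, and 30.6% and 44.4% of the genes at 10 CPM or more), with a median of -0.14 against 0.00 over all genes. Library size scaling moved the median of all genes by 0.15 and the split to 13 higher and 15 lower, and removal of the GC and length trend gave 5 higher and 21 lower.

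Few members changed beyond 2-fold. In resistant 786-O 1 member did so (CREB3L2), in resistant over parental A498 1 (DERL3), and in resistant A498 over parental 786-O 2 (SDF2L1 and DERL3). Of all genes tested 23.5%, 31.8% and 22.4% did so. Of these 19929 genes only 10085 were at 10 CPM or more, and the share beyond 2-fold was not taken among those alone. The whole set took 1.09 ± 0.00669% of all counts in parental 786-O, 1.11 ± 0.0814% in resistant 786-O, 0.929 ± 0.0188% in parental A498 and 1.12 ± 0.0154% in resistant A498 (mean ± SD, n = 3). The chaperones alone took 0.501 ± 0.00370%, 0.496 ± 0.0297%, 0.358 ± 0.00861% and 0.497 ± 0.00917% in the same order. Neither share fell in resistant 786-O beyond the spread of its libraries. These are shares of counts without TMM scaling, and they follow the most abundant members. P4HB, CALR, CANX and HSPA5 alone held 46.9% to 47.3% of the members' counts in parental 786-O and 51.4% in each resistant 786-O library. The shares thus do not speak for most members. In these cultured lines, as in any bulk RNA, fewer cells with a high level and a lower level in each cell cannot be told apart.

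**Figure D2:**
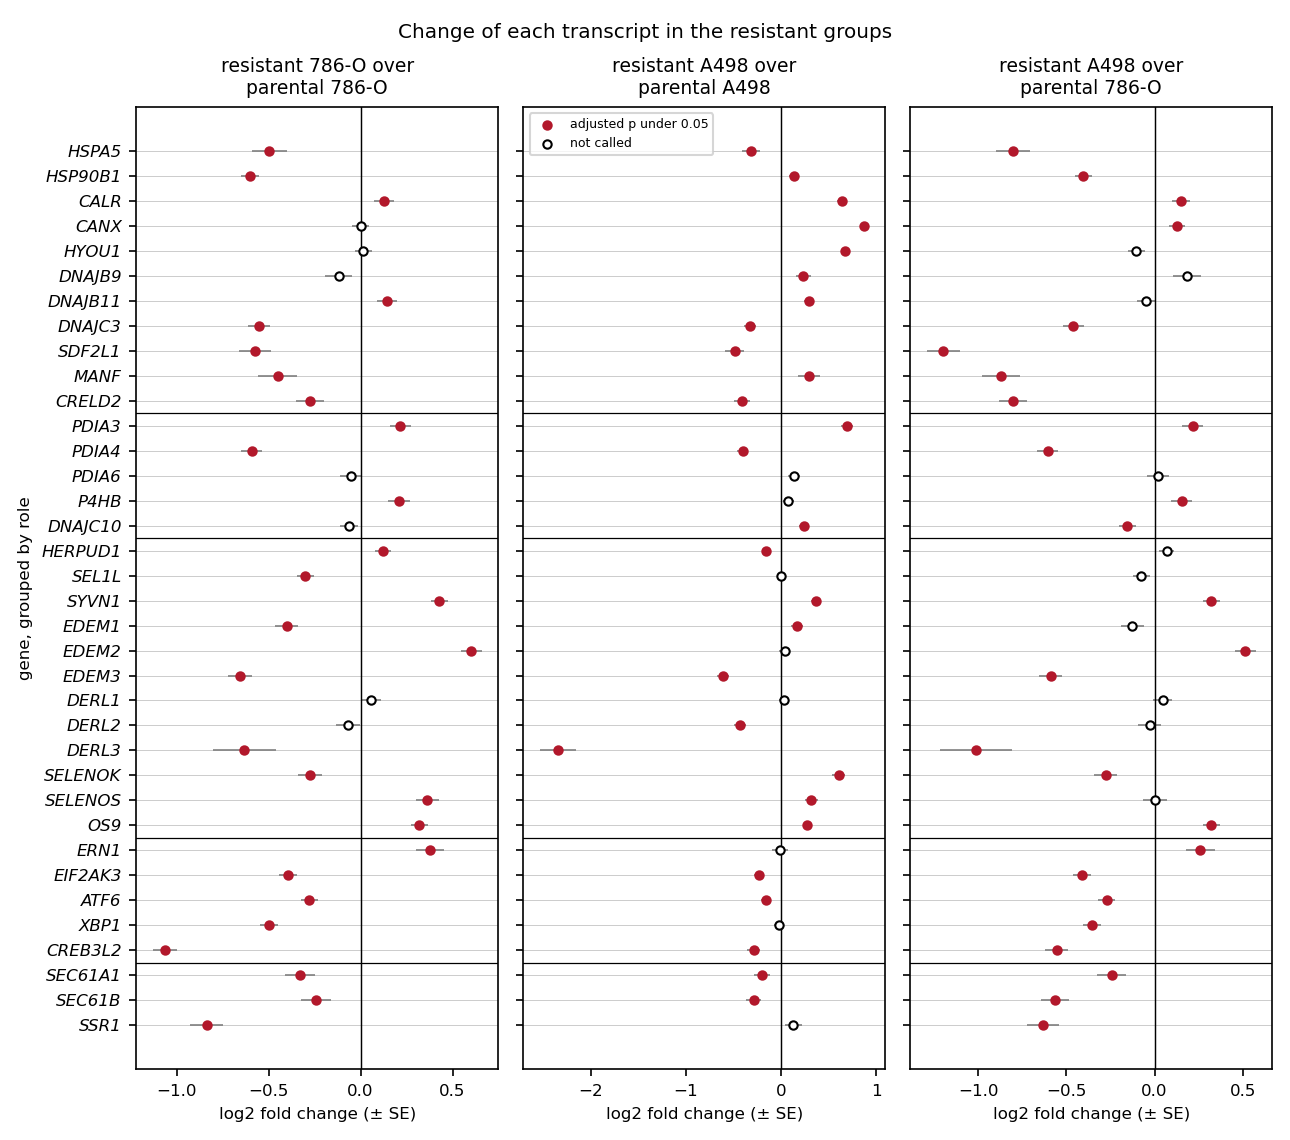
Log2 fold change ± standard error of each of the 36 transcripts (rows, grouped by role) in resistant over parental 786-O, resistant over parental A498 and resistant A498 over parental 786-O, with filled points for an adjusted p under 0.05 and open points for the rest. The chaperones from DNAJC3 to CRELD2 lie left of 0 in both comparisons with parental 786-O, which share the parental 786-O libraries. CANX, HYOU1, CALR and PDIA3 lie right of 0 by 0.64 to 0.87 in resistant over parental A498, and the horizontal axes differ between panels.

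BiP, the major Hsp70 of the ER lumen and the product of HSPA5 (ENSG00000044574, chromosome 9, 125234853 to 125241382), was lower in both resistant groups. HSPA5 was at 1238, 1186 and 1201 CPM in the parental 786-O replicates, 745, 1055 and 770.0 in resistant 786-O, 879, 857 and 852 in parental A498 and 711, 695 and 672 in resistant A498. All resistant 786-O libraries were below all parental 786-O libraries, but replicate 2 lay closer to parental 786-O than to its own group, and all resistant A498 libraries were below both parental lines. The log2 fold change was -0.50 (SE 0.09, adjusted p = 0.00026) in resistant 786-O, -0.32 (SE 0.09, adjusted p = 0.0071) in resistant over parental A498 and -0.80 (SE 0.09, adjusted p = 2.7e-06) in resistant A498 over parental 786-O.

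GRP94, the Hsp90 of the ER encoded by HSP90B1 (ENSG00000166598, chromosome 12, 103930107 to 103953931), was lower in resistant 786-O. Its libraries stood at 855, 851 and 866 CPM in parental 786-O, 561, 589 and 545 in resistant 786-O, 633, 565 and 572 in parental A498 and 659, 656 and 628 in resistant A498. Resistant 786-O fell clear of parental 786-O, with a log2 fold change of -0.60 (SE 0.05, adjusted p = 4.8e-08), while resistant A498 overlapped parental A498 and stood -0.40 from parental 786-O on the log2 scale (SE 0.05, adjusted p = 3.7e-06). The value over parental A498 was 0.14 (adjusted p = 0.022), it was not called without parental A498 replicate 2 (0.11) or 3 (0.11), and it was -0.24 with the GC and length trend removed. UQCC6, which overlaps HSP90B1 on the opposite strand with 14.5% of its counts, moved by -0.57, 0.19 and -0.39 in the order of the comparisons.

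Of the cofactors of BiP, SDF2L1, MANF, CRELD2 and DNAJC3 were lower than in parental 786-O in both resistant groups, whereas DNAJB9, DNAJB11 and HYOU1 were not. SDF2L1, part of a complex with the cochaperone DNAJB11, stood at 35.4, 31.6 and 33.2 CPM in parental 786-O, 19.8, 25.9 and 21.6 in resistant 786-O, 21.2, 19.1 and 20.8 in parental A498 and 14.4, 13.5 and 15.7 in resistant A498. The resistant A498 libraries were the lowest and those of parental 786-O the highest with no overlap, and the log2 fold change was -0.58 (SE 0.09, adjusted p = 3.4e-05) in resistant 786-O, -0.49 (SE 0.10, adjusted p = 0.00036) over parental A498 and -1.20 (SE 0.09, adjusted p = 3.5e-08) in resistant A498 over parental 786-O. MANF, a BiP-binding factor that is also secreted, was at 95.9, 93.4 and 93.6 CPM in parental 786-O, 60.3, 87.4 and 59.4 in resistant 786-O, 42.2, 41.5 and 42.4 in parental A498 and 51.6, 53.1 and 50.1 in resistant A498.

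Resistant 786-O replicate 2 again lay near parental 786-O for MANF, whose log2 fold change was -0.45 (SE 0.11, adjusted p = 0.0015) in resistant 786-O and -0.87 (SE 0.11, adjusted p = 5.3e-06) in resistant A498 over parental 786-O. Resistant A498 was above parental A498 by 0.29 (adjusted p = 0.029), a call that was lost without resistant A498 replicate 2 or without any 1 of the parental A498 replicates (0.29 to 0.30, adjusted p 0.054 to 0.069), and parental 786-O stood 1.16 above parental A498. The call stayed with only the 2 groups fitted, where the spread of resistant 786-O does not enter, and the libraries of these groups did not overlap. CRELD2, an ER protein induced by stress in the ER, was at 44.2, 42.6 and 42.8 CPM in parental 786-O, 31.4, 41.0 and 34.7 in resistant 786-O, 34.2, 32.2 and 32.4 in parental A498 and 25.3, 25.7 and 23.4 in resistant A498. CRELD2 fell in each comparison, with log2 fold changes of -0.27 in resistant 786-O, -0.41 over parental A498 and -0.80 in resistant A498 over parental 786-O. The call in resistant 786-O was lost without resistant 786-O replicate 1 (-0.17, adjusted p = 0.051), and ALG12 on the opposite strand had 108% of the counts of CRELD2 and moved by 0.03, 0.42 and -0.13 in the order of the comparisons. DNAJC3, a cochaperone first known as an inhibitor of PERK, was below both parental lines in all 6 resistant libraries, with means of 58.9 ± 1.29 CPM in parental 786-O, 40.2 ± 3.22 in resistant 786-O, 53.6 ± 2.42 in parental A498 and 42.8 ± 0.651 in resistant A498 (± SD, n = 3).

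Unlike BiP, the lectin chaperones were not called lower by edgeR in any comparison of resistant with parental groups. Calreticulin (CALR, ENSG00000179218, chromosome 19, 12938578 to 12944489) was the most abundant member per kilobase of exon in every group, at 548 CPM per kilobase in parental 786-O, 599 in resistant 786-O, 389.9 in parental A498 and 608 in resistant A498. Its libraries were at 1556, 1513 and 1539 CPM in parental 786-O, 1596, 1845 and 1594 in resistant 786-O, 1112, 1097 and 1069 in parental A498 and 1737, 1704 and 1670.5 in resistant A498, so that all 6 resistant libraries were above all 6 parental ones. In resistant 786-O the log2 fold change was 0.13 (SE 0.05, adjusted p = 0.042), which was lost without resistant 786-O replicate 2 (0.05, adjusted p = 0.17) and without any 1 of the parental 786-O replicates (0.12 to 0.14). Resistant A498 rose by 0.64 over parental A498 and by 0.15 over parental 786-O on the log2 scale (adjusted p = 3.2e-08 and 0.022), the latter lost without parental 786-O replicate 2 (0.14) or 3 (0.15). An RNA on the opposite strand with 15.9% of the counts of CALR moved by -0.03, 0.26 and -0.24 in the order of the comparisons.

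Calnexin, the membrane-bound relative of calreticulin, was called in resistant A498 only. CANX (ENSG00000127022, chromosome 5, 179678628 to 179731641) was at 1142, 1156 and 1162 CPM in parental 786-O, 1214, 1089 and 1157 in resistant 786-O, 705, 701 and 652 in parental A498 and 1279, 1246 and 1250.5 in resistant A498. Parental A498 stood below all other groups, and the log2 fold change of resistant A498 was 0.87 (SE 0.05, adjusted p = 2.3e-10) over parental A498 but 0.13 (adjusted p = 0.028) over parental 786-O, which was lost without any 1 of the parental 786-O replicates (0.12 to 0.13) and was -0.05 with the GC and length trend removed. In resistant 786-O its value was 0.00 with a standard error of 0.05. HYOU1, a large Hsp70 relative that acts as nucleotide exchange factor of BiP, was also lowest in parental A498, with 298, 295 and 299 CPM in parental 786-O, 278, 318 and 306 in resistant 786-O, 171, 172 and 175 in parental A498 and 282, 275 and 273 in resistant A498. Only resistant over parental A498 was called for HYOU1, at 0.68 (SE 0.05, adjusted p = 6.4e-09), where parental 786-O stood 0.78 above parental A498. With the GC and length trend removed HYOU1 was also called lower in resistant 786-O (-0.22, adjusted p = 0.00087) and in resistant A498 over parental 786-O (-0.21, adjusted p = 0.0013), whereas library size scaling called it higher in resistant 786-O (0.16).

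The J-domain cochaperones DNAJB9 and DNAJB11 moved little. DNAJB9 was called in resistant over parental A498 (0.23, adjusted p = 0.015, lost without parental A498 replicate 3 at 0.19) and was at -0.12 in resistant 786-O without a call. With the GC and length trend removed, DNAJB9 was called higher in resistant 786-O (0.24). DNAJB11 rose by 0.14 in resistant 786-O (adjusted p = 0.025, lost without parental 786-O replicate 2 or 3, at 0.13 each) and by 0.30 over parental A498, the latter being -0.04 with the GC and length trend removed. In resistant 786-O, 2 of the 11 chaperones were higher and 6 lower (18.2% and 54.5%, beside 29.0% and 47.7% of the genes at 10 CPM or more and 35.0% and 33.5% of all genes). In resistant over parental A498 7 were higher and 4 lower (63.6% and 36.4%, beside 43.2% and 38.0%, and 36.3% and 36.4%), and in resistant A498 over parental 786-O 2 were higher and 6 lower (18.2% and 54.5%, beside 30.6% and 44.4%, and 31.6% and 32.1%).

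**Figure D3:**
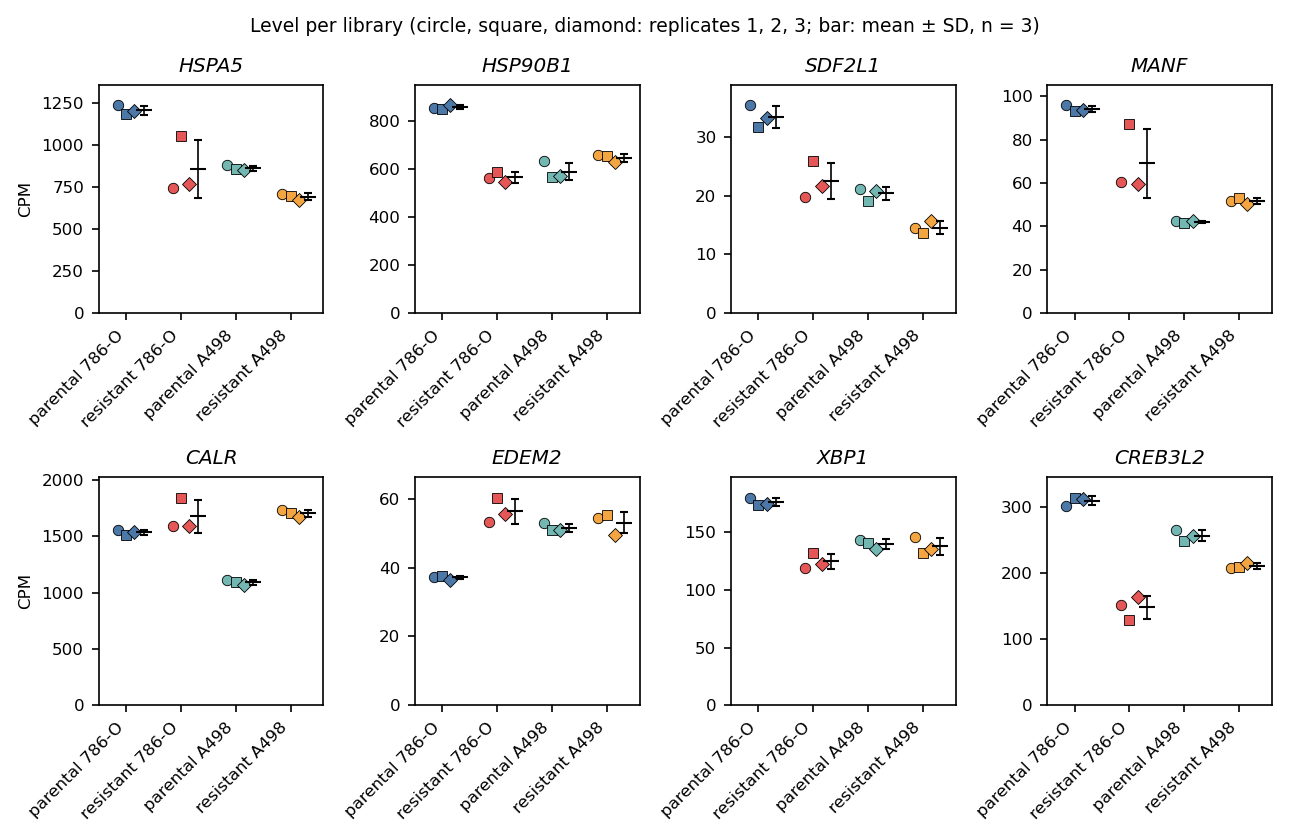
Level in CPM of HSPA5, HSP90B1, SDF2L1, MANF, CALR, EDEM2, XBP1 and CREB3L2 in each library of the 4 groups (circle, square and diamond for replicates 1, 2 and 3), with the mean ± SD of each group beside the points and axes that start at 0. HSPA5 and MANF show resistant 786-O replicate 2, at 1055 and 87.4 CPM, apart from the other resistant 786-O libraries, and CREB3L2 shows resistant 786-O below all other groups.

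Among the disulfide isomerases, PDIA4 fell and PDIA3 rose in all comparisons. PDIA4 (ERp72, ENSG00000155660, chromosome 7, 149003062 to 149028662) was at 677, 652 and 662 CPM in parental 786-O, 407, 493 and 421 in resistant 786-O, 595, 567 and 569 in parental A498 and 440.4, 436 and 431 in resistant A498. Every resistant library was below every parental one, and the log2 fold change was -0.59 (SE 0.06, adjusted p = 4.5e-07) in resistant 786-O, -0.40 (SE 0.06, adjusted p = 2e-05) over parental A498 and -0.61 (SE 0.06, adjusted p = 4.1e-07) in resistant A498 over parental 786-O. PDIA3 (ERp57), which works with calnexin and calreticulin on glycoproteins, was at 578, 586 and 575 CPM in parental 786-O, 632, 751 and 638 in resistant 786-O, 430.4, 414 and 403 in parental A498 and 689, 673 and 656 in resistant A498. All 6 resistant libraries were above all 6 parental ones, with log2 fold changes of 0.22 (SE 0.06, adjusted p = 0.004), 0.69 (SE 0.06, adjusted p = 4.3e-08) and 0.21 (SE 0.06, adjusted p = 0.0047) in the same order, the last of which was -0.0042 with the GC and length trend removed.

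The other 3 isomerases changed by less than 0.25 on the log2 scale. P4HB, the classical protein disulfide isomerase, rose by 0.21 in resistant 786-O and by 0.15 in resistant A498 over parental 786-O, and these were -0.11 and -0.04 with the GC and length trend removed. The call in resistant A498 over parental 786-O was lost without any 1 of the parental 786-O replicates (0.14 to 0.17). An RNA on the opposite strand with 29.8% of the counts of P4HB moved by 0.11, -0.23 and -0.13 in the order of the comparisons. PDIA6 was called in none of the comparisons of resistant with parental groups, at -0.05, 0.14 and 0.02, and without resistant 786-O replicate 2 it was called lower in resistant 786-O (-0.15, adjusted p = 0.00083). DNAJC10, a reductase that serves ERAD, was higher in resistant A498 than in parental A498 by 0.24 (-0.21 with the GC and length trend removed) and lower than in parental 786-O (-0.15), a call lost without any 1 of the resistant A498 replicates (-0.14 to -0.10), and without resistant 786-O replicate 2 it was also called in resistant 786-O (-0.11).

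ERAD genes went both ways within the same complex. SYVN1, the ubiquitin ligase HRD1, rose by 0.43 in resistant 786-O, 0.36 over parental A498 and 0.32 in resistant A498 over parental 786-O on the log2 scale and was above all parental libraries in all 6 resistant ones, with means of 42.3 ± 0.594 CPM in parental 786-O, 57.0 ± 1.65 in resistant 786-O, 41.1 ± 1.35 in parental A498 and 52.9 ± 1.58 in resistant A498 (± SD, n = 3). It shares exons with FAU and MRPL49, which had 282% and 184% of its counts, and in the order of the comparisons FAU moved by -0.40, 0.09 and -0.39 and MRPL49 by 0.19, 0.43 and 0.19. Its partner SEL1L was lower in resistant 786-O (-0.30, adjusted p = 5.3e-05) and at 0.00 and -0.08 in resistant over parental A498 and in resistant A498 over parental 786-O without a call. With the GC and length trend removed, SEL1L was called lower in each comparison (-0.16, -0.33 and -0.18).

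The EDEM proteins, which trim mannose from glycoproteins that fail to fold, split by member. EDEM2 (ENSG00000088298, chromosome 20, 35115364 to 35147336) was at 37.4, 37.5 and 36.5 CPM in parental 786-O, 53.2, 60.4 and 55.5 in resistant 786-O, 52.9, 50.9 and 50.8 in parental A498 and 54.4, 55.3 and 49.5 in resistant A498, so that parental 786-O alone was low. Its log2 fold change was 0.60 (SE 0.06, adjusted p = 2.5e-07) in resistant 786-O, 0.51 (SE 0.06, adjusted p = 1.8e-06) in resistant A498 over parental 786-O, and 0.04 over parental A498 without a call. EDEM3 (ENSG00000116406, chromosome 1, 184690237 to 184754907) was at 38.8, 40.6 and 44.1 CPM in parental 786-O, 26.5, 24.9 and 27.0 in resistant 786-O, 44.5, 42.0 and 38.7 in parental A498 and 27.9, 27.6 and 26.7 in resistant A498.

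The parental lines had like levels of EDEM3 and both resistant groups were lower, with log2 fold changes of -0.66 (SE 0.06, adjusted p = 3e-07) in resistant 786-O, -0.61 (SE 0.07, adjusted p = 7.7e-07) over parental A498 and -0.59 (SE 0.07, adjusted p = 1.5e-06) in resistant A498 over parental 786-O. The difference of parental 786-O from parental A498 for EDEM3 was -0.02 on the log2 scale. EDEM1 fell by 0.40 in resistant 786-O (adjusted p = 4.8e-05), and its call of 0.17 over parental A498 was lost without resistant A498 replicate 3 (0.17) and without parental A498 replicate 2 (0.15) or 3 (0.15) and was -0.04 with the GC and length trend removed. The lectin OS9, which hands trimmed glycoproteins to SEL1L, rose by 0.32, 0.28 and 0.32 in the order of the comparisons and was above all parental libraries in all 6 resistant ones, while an antisense RNA with 31.8% of its counts rose by 0.20, 0.22 and 0.25. The other genes that share exons with OS9 went the other way, AGAP2 (10.7% of its counts) by -0.50, -0.80 and -0.68 and AGAP2-AS1 (11.9%) by -0.60, -0.84 and -0.78.

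Of the remaining ERAD genes, HERPUD1, which is induced by stress and recruits HRD1 complexes, had a narrow range. HERPUD1 was at 99.5, 99.2 and 93.6 CPM in parental 786-O, 108, 106 and 104 in resistant 786-O, 112, 114 and 115 in parental A498 and 103, 102 and 100.4 in resistant A498. The values were 0.12 in resistant 786-O (adjusted p = 0.017, lost without parental 786-O replicate 3 at 0.09), -0.15 over parental A498 (adjusted p = 0.0043, lost without resistant A498 replicate 3 at -0.12) and 0.07 in resistant A498 over parental 786-O without a call. The last was called higher with library size scaling (0.22), DESeq2 (0.10), 10 counts in every library (0.11) or only the 2 groups fitted (0.11). SELENOK, a small membrane selenoprotein that binds derlins, was at 30.7, 30.6 and 31.0 CPM in parental 786-O, 25.3, 27.9 and 23.1 in resistant 786-O, 16.4, 16.5 and 17.1 in parental A498 and 26.3, 24.4 and 25.5 in resistant A498. Both resistant groups lay between the parental lines, with log2 fold changes of -0.28 (SE 0.06, adjusted p = 0.0015) in resistant 786-O, 0.61 (SE 0.07, adjusted p = 1.5e-06) over parental A498 and -0.28 (SE 0.07, adjusted p = 0.002) in resistant A498 over parental 786-O. SELENOS, which links derlins to the ATPase VCP, rose by 0.36 in resistant 786-O and 0.32 over parental A498 and was at 0.00 in resistant A498 over parental 786-O without a call.

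Derlins, the membrane proteins of the ERAD channel, moved unevenly. DERL1 was called in none of the comparisons of resistant with parental groups, with values from 0.04 to 0.06, and DERL2 was lower in resistant A498 than in parental A498 (-0.43, adjusted p = 3.5e-05) and, without resistant 786-O replicate 2, lower in resistant 786-O (-0.13, adjusted p = 0.039). With the GC and length trend removed, DERL1 was called lower over parental A498 (-0.22) and DERL2 higher in resistant 786-O (0.14). DERL3, a stress-induced derlin of secretory tissues, was at the edge of detection, with 2.08, 2.12 and 1.46 CPM in parental 786-O, 1.12, 1.49 and 1.03 in resistant 786-O, 4.66, 4.74 and 4.82 in parental A498 and 0.895, 0.909 and 0.978 in resistant A498 and no fewer than 19 counts in a library. The log2 fold changes were -0.63 (SE 0.17, adjusted p = 0.0047), -2.35 (SE 0.19, adjusted p = 2.6e-08) and -1.01 (SE 0.20, adjusted p = 0.00047), of which that over parental A498 stood beside a parental difference of -1.33 (parental 786-O over parental A498). SMARCB1 lies on the opposite strand over 2923 exon bases with 3945% of the counts of DERL3 and moved by -0.47, 0.48 and -0.33, and the reads of this pair cannot be told apart.

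The mRNAs of the sensors PERK and ATF6 were lower in both resistant groups. EIF2AK3 was at 46.6, 47.0 and 45.8 CPM in parental 786-O, 35.6, 35.7 and 34.7 in resistant 786-O, 42.2, 40.8 and 39.7 in parental A498 and 33.1, 36.2 and 35.4 in resistant A498. ATF6 was at 72.7, 73.6 and 74.7 CPM in parental 786-O, 60.5, 62.4 and 59.3 in resistant 786-O, 70.2, 68.9 and 65.6 in parental A498 and 63.0, 60.8 and 59.3 in resistant A498. For both genes all 6 resistant libraries were below all 6 parental ones. An RNA on the opposite strand with 28.0% of the counts of EIF2AK3 moved by -0.37, -0.27 and -0.47 in the order of the comparisons. The log2 fold change of EIF2AK3 was -0.39 (SE 0.05, adjusted p = 4.1e-06) in resistant 786-O, -0.23 (SE 0.05, adjusted p = 0.00083) over parental A498 and -0.41 (SE 0.05, adjusted p = 3.8e-06) in resistant A498 over parental 786-O, and that of ATF6 was -0.28, -0.16 and -0.27 (adjusted p = 6.6e-05, 0.0061 and 0.00011), of which the value over parental A498 was not called without resistant A498 replicate 3 (-0.12, adjusted p = 0.073).

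IRE1 moved the other way. ERN1 was low, at 7.18, 7.84 and 7.94 CPM in parental 786-O, 10.3, 9.41 and 10.1 in resistant 786-O, 9.29, 9.20 and 9.20 in parental A498 and 9.77, 9.14 and 8.57 in resistant A498. Parental 786-O was the lowest group, and the log2 fold change was 0.38 (SE 0.08, adjusted p = 0.00056) in resistant 786-O, -0.01 over parental A498 without a call, and 0.26 (SE 0.08, adjusted p = 0.013) in resistant A498 over parental 786-O, the last being -0.0052 with the GC and length trend removed and lost without parental 786-O replicate 1 (0.22). XBP1 (ENSG00000100219, chromosome 22, 28794555 to 28800597), whose mRNA IRE1 splices and whose promoter holds an ERSE, was at 180.3, 174 and 174 CPM in parental 786-O, 119.5, 132 and 122 in resistant 786-O, 144, 141 and 135 in parental A498 and 146, 132 and 135 in resistant A498. It was highest in parental 786-O, while parental and resistant A498 overlapped, and the log2 fold change was -0.50 (SE 0.05, adjusted p = 5.6e-07) in resistant 786-O, -0.02 over parental A498 without a call and -0.35 (SE 0.05, adjusted p = 2.3e-05) in resistant A498 over parental 786-O. With the GC and length trend removed, XBP1 was called lower over parental A498 (-0.24, adjusted p = 0.00017).

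CREB3L2 (ENSG00000182158, chromosome 7, 137874979 to 138002086), a factor anchored in the ER membrane that drives genes of secretory transport, had the largest change of the members in resistant 786-O. Its libraries were at 301, 314 and 311 CPM in parental 786-O, 151, 129 and 164 in resistant 786-O, 265, 249 and 255 in parental A498 and 207, 208 and 215 in resistant A498. No groups overlapped, resistant 786-O was lowest and resistant 786-O replicate 2 was the lowest of all, and the log2 fold change was -1.06 (SE 0.07, adjusted p = 2.8e-09) in resistant 786-O, -0.29 (SE 0.07, adjusted p = 0.0013) over parental A498 and -0.55 (SE 0.07, adjusted p = 3.4e-06) in resistant A498 over parental 786-O. Between the resistant groups resistant A498 was above resistant 786-O by 0.51 (SE 0.07, adjusted p = 2.6e-05).

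All 3 translocon members were lower in resistant 786-O and in resistant A498 over parental 786-O. Called lower in resistant 786-O were 33.5% of all genes tested and 47.7% of those at 10 CPM or more. In resistant A498 over parental 786-O, which shares the parental 786-O libraries, these shares were 32.1% and 44.4%. SSR1 (ENSG00000124783, chromosome 6, 7268306 to 7347446), a subunit of the translocon-associated TRAP complex, was at 185, 187 and 189.7 CPM in parental 786-O, 96.8, 128 and 90.03 in resistant 786-O, 109, 115 and 108 in parental A498 and 120.4, 123.2 and 119 in resistant A498. Parental 786-O was well above all other groups, and the log2 fold change was -0.84 (SE 0.09, adjusted p = 1.1e-06) in resistant 786-O, 0.13 over parental A498 without a call, and -0.63 (SE 0.09, adjusted p = 2.3e-05) in resistant A498 over parental 786-O. The channel subunits SEC61A1 and SEC61B had values of -0.33 and -0.24 in resistant 786-O, -0.20 and -0.29 over parental A498, and -0.24 and -0.56 in resistant A498 over parental 786-O, all called. For SEC61B the call in resistant 786-O was lost without resistant 786-O replicate 1 (-0.17) or 3 (-0.14), and SEC61A1 was at -0.22 without resistant 786-O replicate 1. For SEC61A1 the call over parental A498 was lost without any 1 of the parental A498 or resistant A498 replicates (-0.20 to -0.16), and that in resistant A498 over parental 786-O without any 1 of the resistant A498 replicates (-0.23 to -0.20), and RUVBL1 on the opposite strand had 22.9% of its counts and moved by -0.29, 0.19 and -0.37. Both of these calls of SEC61A1 stayed with only the 2 groups fitted, where the spread of resistant 786-O does not enter.

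Some calls depended on the processing. With the GC and length trend removed, the calls in resistant 786-O of CALR (0.02), PDIA3 (0.05), SELENOK (-0.07), OS9 (0.08) and ERN1 (0.10) and that of DNAJB9 over parental A498 (0.00) were lost. With library size scaling, those of CRELD2 (-0.13), SELENOK (-0.13) and SEC61B (-0.10) in resistant 786-O, of HERPUD1 (-0.09), ATF6 (-0.09) and SEC61A1 (-0.13) over parental A498, and of DNAJC10 (-0.0034), SELENOK (-0.13) and SEC61A1 (-0.09) in resistant A498 over parental 786-O were lost. Without the filter on low counts, CALR (0.12), DNAJB11 (0.14) and HERPUD1 (0.12) in resistant 786-O, HERPUD1 (-0.11) and ATF6 (-0.12) over parental A498, and CANX (0.11) and ERN1 (0.25) in resistant A498 over parental 786-O were not called. With only the 2 groups fitted, CALR (0.16), CRELD2 (-0.24) and SEC61B (-0.21) were not called in resistant 786-O, and no call was lost in either comparison of resistant A498. EDEM1 over parental A498 was lost with DESeq2 (0.15) and with 10 counts in every library (0.14), and the latter also lost SEC61B in resistant 786-O (-0.19) and DNAJC10 in resistant A498 over parental 786-O (-0.11). Thinning to the smallest library lost MANF over parental A498 (0.26).

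Other calls were gained. DNAJB9 in resistant A498 over parental 786-O was called higher under 6 alternatives (0.22 to 0.33), namely library size scaling, DESeq2, 10 counts in every library, the GC and length trend removed, only the 2 groups fitted and thinning. With the GC and length trend removed, EDEM1 (-0.24) and SEL1L (-0.18) in resistant A498 over parental 786-O and EDEM2 (0.16) over parental A498 were called. So were DNAJB9 (0.24) and DERL2 (0.14) in resistant 786-O and SEL1L (-0.33) and DERL1 (-0.22) over parental A498, each with its sign reversed. With library size scaling, CANX (0.14) and DERL1 (0.20) in resistant 786-O, P4HB (0.15) and PDIA6 (0.21) over parental A498, and DERL1 (0.20), PDIA6 (0.17) and SELENOS (0.15) in resistant A498 over parental 786-O were called. SSR1 and PDIA6 over parental A498 were called without the filter (0.17 and 0.18) and with only the 2 groups fitted (0.13 each), which also called P4HB (0.07) there and DERL1 (0.08), EDEM1 (-0.09) and HYOU1 (-0.07) in resistant A498 over parental 786-O. HSPA5, HSP90B1, SDF2L1, DNAJC3, PDIA4, EDEM3, XBP1, CREB3L2 and SSR1 stayed called lower in resistant 786-O with the GC and length trend removed and with library size scaling. MANF, SEL1L, EDEM1, DERL3, EIF2AK3, ATF6 and SEC61A1 also stayed called lower under both, and DNAJB11, HERPUD1, SYVN1, EDEM2 and SELENOS stayed called higher. SDF2L1 was at -1.05 with the GC and length trend removed.

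Over all roles, 7 members (DNAJC3, PDIA4, EDEM3, EIF2AK3, ATF6, CREB3L2 and SEC61A1) were lower in all 6 resistant libraries than in all 6 parental ones, and 4 (CALR, PDIA3, SYVN1 and OS9) were higher. These are 19.4% and 11.1% of the members, against 11.2% and 11.9% of all genes tested. Between the parental lines 27 members were called, against 74.2% of all genes tested, and between the resistant groups 14, against 46.1%. None of the disulfide isomerases was among the 14, and these had differences of -0.09 to 0.07 between resistant A498 and resistant 786-O on the log2 scale. The change in resistant over parental A498 differed from that in resistant over parental 786-O for 20 members, against 68.3% of all genes tested, by a test of the difference itself in the same edgeR model.

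**Figure D4:**
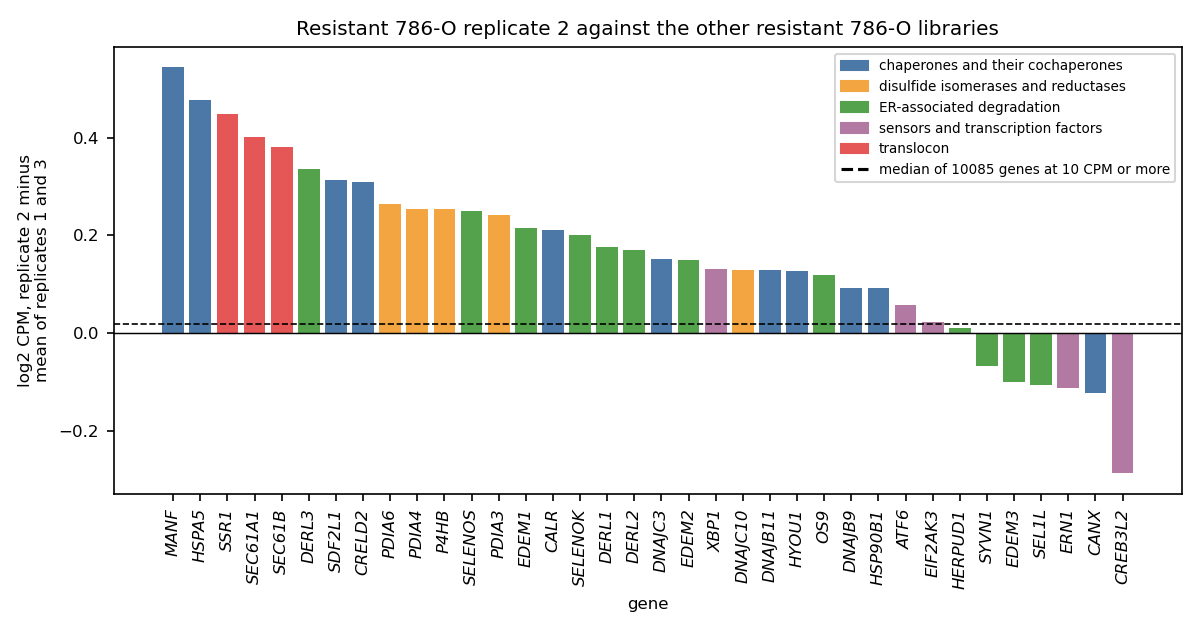
Difference of resistant 786-O replicate 2 from the mean of resistant 786-O replicates 1 and 3, as log2 CPM, for each of the 36 transcripts in falling order and coloured by role, with the median of 10085 genes at 10 CPM or more as a dashed line. MANF (0.54) and HSPA5 (0.48) and the translocon genes (0.38 to 0.45) were highest, and CREB3L2 (-0.29) was lowest.

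Within resistant 786-O most members were higher in replicate 2 than in the other replicates. It was above both other replicates for 28 of the 36 members and below both for 6. The share of all genes above or below both was not taken, so these counts show nothing particular to the members. The members' median difference from the mean of the other replicates was 0.16 on the log2 scale, while the median of the 10085 genes at 10 CPM or more was 0.02. By role the medians were 0.40 for the translocon, 0.25 for the disulfide isomerases, 0.16 for ERAD, 0.15 for the chaperones and 0.02 for the sensors and factors. A difference of more than 0.2 upwards was found for 16 members and 21.1% of the genes, and downwards for 1 member and 20.0% of the genes. The median coefficient of variation of the members was 8.31% in resistant 786-O, against 1.46% in parental 786-O, 3.13% in parental A498 and 2.77% in resistant A498. Without this library the members' median in resistant 786-O was -0.28, HSPA5 was at -0.67, MANF at -0.66, CREB3L2 at -0.97 and SEC61B at -0.38 on the log2 scale, while PDIA3 (0.13) and P4HB (0.12) were nearer to 0.

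Genes of the same pathways outside the 36 were read from 8 lists. Their counts stand beside 35.0% of all genes tested called higher and 33.5% lower in resistant 786-O, 36.3% and 36.4% over parental A498, and 31.6% and 32.1% in resistant A498 over parental 786-O. Among the genes at 10 CPM or more these shares were 29.0% and 47.7%, 43.2% and 38.0%, and 30.6% and 44.4%. Of 16 outputs of the PERK and ATF4 arm, 10 were higher and 3 lower in resistant 786-O (62.5% and 18.8%, median log2 fold change 0.43), 4 higher and 7 lower in resistant over parental A498 (-0.02), and 13 higher and 1 lower in resistant A498 over parental 786-O (81.2% and 6.2%, 0.65). ATF4 itself was called lower in resistant 786-O (-0.39) and higher over parental A498 (0.14, adjusted p = 0.015) and was at -0.10 in resistant A498 over parental 786-O without a call. DDIT3, which encodes CHOP, rose by 0.48, 0.62 and 1.105 in the order of the comparisons. NUPR1 rose from 3.36 ± 0.192 CPM in parental 786-O to 29.7 ± 8.80 in resistant 786-O (mean ± SD, n = 3), ATF3 from 10.8 ± 0.505 to 34.0 ± 7.43 and CHAC1 from 14.96 ± 1.77 to 32.8 ± 3.41. In resistant over parental A498 NUPR1 was lower (log2 fold change -1.42), and ATF3 and CHAC1 were at 0.08 and 0.02 without a call.

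Of 20 other genes of the translocon, signal peptidase and signal recognition particle, 1 was higher and 15 lower in resistant 786-O (5% and 75%, median -0.41), 9 higher and 9 lower over parental A498 (0.08), and 2 higher and 14 lower in resistant A498 over parental 786-O (-0.34). SPCS3, a subunit of the signal peptidase, was at 143 ± 1.75 CPM in parental 786-O, 50.1 ± 6.60 in resistant 786-O, 107 ± 6.15 in parental A498 and 60.1 ± 1.28 in resistant A498, lower in all 3 comparisons. TRAM1, a translocating chain protein, was higher in all 3, at 287 ± 0.350, 362 ± 39.7, 347 ± 8.81 and 801 ± 27.9 CPM in the same order. Of 12 other transducers and regulators of the UPR, 2 were higher and 6 lower in resistant 786-O (-0.24), 4 and 6 over parental A498 (-0.15), and 3 and 6 in resistant A498 over parental 786-O (-0.22). STC2, a secreted glycoprotein induced by PERK signalling, was among them and fell, with log2 fold changes of -2.83 in resistant 786-O, -2.34 over parental A498 and -3.28 in resistant A498 over parental 786-O. STC2 was thus not counted among the outputs of the PERK and ATF4 arm above. WFS1, an ER membrane protein, rose by 1.25 in resistant 786-O and 1.12 in resistant A498 over parental 786-O and was at -0.03 over parental A498 without a call.

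Of 26 other ERAD genes, 5 were higher and 12 lower in resistant 786-O (-0.14), 15 and 7 over parental A498 (0.30), and 7 and 12 in resistant A498 over parental 786-O (-0.02). RNF185, a ubiquitin ligase of the ER membrane, rose by 0.77, 0.54 and 0.81, and the ubiquitin-conjugating enzyme UBE2J1 changed by -0.81, 0.93 and -0.52. Of 15 other oxidoreductases that were tested, 2 were higher and 5 lower in resistant 786-O (-0.04), 13 and 1 over parental A498 (0.60), and 6 and 4 in resistant A498 over parental 786-O (0.05). The cytosolic and mitochondrial chaperones, set beside those of the ER, were mostly lower, with 2 of 21 higher and 15 lower in resistant 786-O (9.5% and 71.4%, median -0.57), 3 and 13 over parental A498 (-0.26), and 1 and 18 in resistant A498 over parental 786-O (-0.63). HSPA8, the constitutive cytosolic Hsp70, fell from 3029 ± 41.4 CPM in parental 786-O to 1772 ± 243 in resistant 786-O, and from 1924 ± 38.7 in parental A498 to 1514 ± 77.3 in resistant A498.

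**Figure D5:**
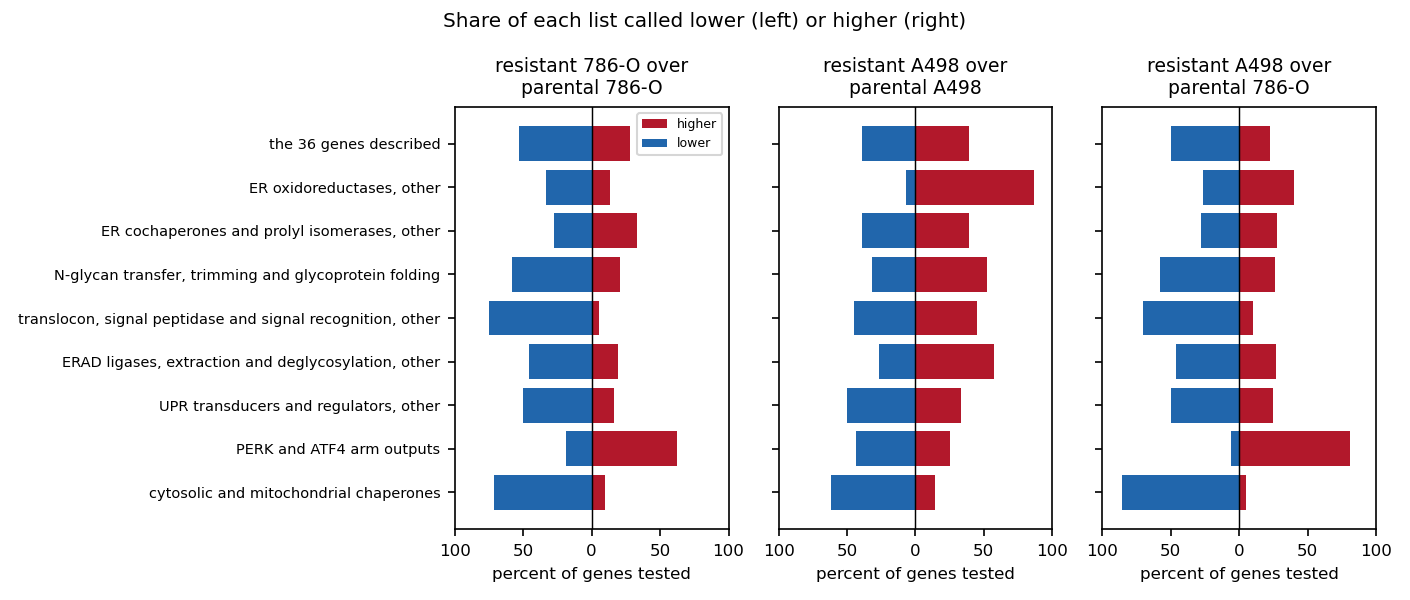
Percent of the tested genes of each list called lower (blue, to the left) or higher (red, to the right) in the 3 comparisons of resistant with parental groups, for the 36 genes described and 8 lists of other genes, with the rest not called. The PERK and ATF4 outputs lie mostly to the right in both comparisons with parental 786-O, whereas the cytosolic and mitochondrial chaperones and the translocon list lie mostly to the left. These comparisons share the parental 786-O libraries.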

How the data were processed

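mRNA of 12 libraries, 3 each of the parental and the resistant form of the 786-O and A498 lines, was prepared with a stranded mRNA kit and sequenced in read pairs. Per the submitters' processing notes and the study's methods, reads were converted with bcl2fastq 2.19.0, trimmed with Trimmomatic 0.36.6, aligned to GRCh38/hg38 with HISAT2 2.1.0 and counted with featureCounts 1.6.3 on GENCODE 33. The authors deposited raw counts per gene, which are not normalized. Positions and exon lengths given here come from GENCODE 44 and promoters from RefSeq.

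Genes were filtered with filterByExpr, scaled with TMM and tested with edgeR 4.0.16 (R 4.3.3) by the quasi-likelihood test in 1 model of 4 group means over all 12 libraries, with Benjamini-Hochberg adjustment over 19929 genes, a threshold of 0.05 and a prior count of 0.125. The standard error is the log2 fold change divided by the square root of F. The procedure was tested on simulated data with the same spread set for every gene and library. That test did not cover the wider spread of resistant 786-O replicate 2.

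The 36 members, 8 lists of other genes, 3 lists of cell markers and the alternatives were chosen with earlier results of these data known. Members were given library by library if they were HSPA5, HSP90B1, XBP1, a sensor, HERPUD1 or DERL3, or among the 6 called members of at least 5 CPM with the largest change and no overlap in a comparison. At most 4 genes of a list were named by the same rule, beside ATF4 and DDIT3. Alternatives were DESeq2 1.42.0, library size scaling, no filter, 10 counts in every library, a prior count of 2, a minimum absolute log2 fold change of 1, thinning to the smallest library, removal of each library's trend with GC content and gene length, only the 2 groups compared, the study's own test of raw counts with unequal variances, the replicate number as a block, and each library left out.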

Additional observations from a re-analysis of the deposited data

Results flagged for a closer look

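For 20 members the change in resistant over parental A498 differed from that in resistant over parental 786-O by a test of the difference itself (edgeR's quasi-likelihood test, Benjamini-Hochberg adjustment over all genes). These were 55.6% of the members, against 68.3% of all genes tested. Since the libraries labelled resistant A498 are close to parental 786-O, this difference cannot be told apart from that between the parental lines. It is given as the log2 fold change in resistant over parental A498 minus that in resistant 786-O. Among the chaperones it was 0.74 for HSP90B1, 0.51 for CALR, 0.87 for CANX, 0.66 for HYOU1, 0.35 for DNAJB9, 0.23 for DNAJC3 and 0.75 for MANF. PDIA3 and DNAJC10 differed by 0.48 and 0.30.

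Among the ERAD genes the difference was -0.28 for HERPUD1, 0.30 for SEL1L, 0.57 for EDEM1, -0.56 for EDEM2, -0.36 for DERL2, -1.72 for DERL3 and 0.88 for SELENOK. In the remaining groups it was -0.39 for ERN1, 0.48 for XBP1, 0.78 for CREB3L2 and 0.97 for SSR1. The call of DNAJC3 was lost without parental 786-O replicate 3, resistant 786-O replicate 3, parental A498 replicate 2 or 3, or resistant A498 replicate 1 (0.17 to 0.22), and also with library size scaling (0.15), DESeq2 (0.18), 10 counts in every library (0.15) or thinning to the smallest library (0.155). The call of ERN1 was lost without the filter on low counts (-0.34), under which HSPA5 (0.23), PDIA4 (0.23) and PDIA6 (0.24) were called, and P4HB was called with library size scaling (-0.20), with 10 counts in every library (-0.21) and without resistant 786-O replicate 1 (-0.18). Without resistant 786-O replicate 2, HSPA5 (0.36), DNAJB11 (0.19), PDIA4 (0.28), PDIA6 (0.29), EIF2AK3 (0.17), ATF6 (0.14) and SEC61A1 (0.28) were called as well.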

How the results depend on the processing

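Values follow the order resistant over parental 786-O, resistant over parental A498, resistant A498 over parental 786-O. Scaling by library size gave members' medians of -0.12, 0.11 and 0.0106, the last with 13 higher. With the GC and length trend removed, medians were -0.22 over parental A498 and -0.22 in resistant A498 over parental 786-O (5 higher). Reversed under it were HYOU1 (-0.22), DNAJB9 (0.24), P4HB (-0.11) and DERL2 (0.14) in resistant 786-O, HSP90B1 (-0.24), DNAJB11 (-0.0389), DNAJC10 (-0.21), SEL1L (-0.33), EDEM1 (-0.0431) and DERL1 (-0.22) over parental A498, and CANX (-0.0467), PDIA3 (-0.0042), P4HB (-0.0382) and ERN1 (-0.0052) in resistant A498 over parental 786-O. The median in resistant A498 over parental 786-O was -0.11 with DESeq2, -0.10 with 10 counts in every library and -0.10 with only the 2 groups fitted, and that over parental A498 was 0.0799 without the filter. A minimum absolute log2 fold change of 1 left 1 member called in resistant 786-O (0 higher, 1 lower), 1 over parental A498 (0 higher, 1 lower), 2 in resistant A498 over parental 786-O (0 higher, 2 lower), 2 between the parental lines, 0 between the resistant groups, where 14 were called by edgeR without this minimum, and 1 for the difference of the changes (0 higher, 1 lower).

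The study's own test of raw counts, unadjusted, takes no account of depth, which differed between the groups. It called 16 members in resistant 786-O (6 lower, median -0.0788), 2 over parental A498 (1 higher, 1 lower, -0.15), 0 higher and 34 lower in resistant A498 over parental 786-O (-0.87), and 35 between the resistant groups. Under it HSP90B1 (-0.0624) and EDEM1 (-0.0193) reversed over parental A498. In resistant A498 over parental 786-O, CALR (-0.58), CANX (-0.61), DNAJB9 (-0.55), PDIA3 (-0.52), PDIA6 (-0.71), P4HB (-0.58), HERPUD1 (-0.66), SYVN1 (-0.41), EDEM2 (-0.22), DERL1 (-0.69), SELENOS (-0.73), OS9 (-0.41) and ERN1 (-0.47) reversed.

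Leaving out 1 library at a time gave medians of -0.28 to -0.17, 0.0175 to 0.084 and -0.15 to -0.10, and 5 to 9 members higher in resistant A498 over parental 786-O. The 5 was reached without any 1 of the parental 786-O replicates. The replicate numbers did not pair the samples, with correlations of their deviations from -0.23 to 0.12, and with the replicate number as a block 29, 28 and 26 members were called, and 20 for the difference of the changes, so that these counts stayed as they were and no call of a member in them changed. Where no cause is named above, the cause was not tested. Depth limits DERL3 most, with as few as 19 counts in a library, against at least 191 for the other members.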

Other observations

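Glycoprotein handling in the ER outside the 36 genes gave values of its own. Of 19 genes of N-glycan transfer, trimming and glycoprotein folding, 4 were higher and 11 lower in resistant 786-O (median log2 fold change -0.13), 10 and 6 in resistant over parental A498 (0.38), and 5 and 11 in resistant A498 over parental 786-O (-0.26). The shares of all tested genes called higher and lower were 35.0% and 33.5%, 36.3% and 36.4%, and 31.6% and 32.1% in the same order. LMAN1, a cargo receptor for glycoproteins, fell from 332 ± 3.71 CPM in parental 786-O to 183 ± 8.84 in resistant 786-O, but rose from 152 ± 6.30 in parental A498 to 248 ± 4.38 in resistant A498 (mean ± SD, n = 3). MAN1B1, a mannosidase of the degradation pathway, rose in both, from 198 ± 2.21 to 321 ± 18.1 CPM and from 156 ± 5.76 to 253 ± 0.691 CPM.

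Of 18 other cochaperones and prolyl isomerases, 6 were higher and 5 lower in resistant 786-O (-0.01), 7 and 7 over parental A498 (0.04), and 5 and 5 in resistant A498 over parental 786-O (-0.02). FKBP9 rose from 134 ± 2.14 CPM in parental 786-O to 238 ± 7.59 in resistant 786-O, while parental and resistant A498 were at 199.5 ± 6.64 and 207 ± 2.68 CPM without a call. FKBP14 fell in both, from 62.7 ± 2.00 to 35.0 ± 1.79 CPM and from 62.8 ± 1.64 to 38.1 ± 0.640 CPM. FKBP11, known from secretory cells, was at 34.1 ± 2.30 CPM in parental A498, 6.58 ± 0.487 in parental 786-O, 4.86 ± 1.33 in resistant 786-O and 2.34 ± 0.131 in resistant A498. No hypothesis was tested on these values.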
